A study of Mus musculus with 5 samples.

Results

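Neutrophil precursors at the promyelocyte stage build the primary, or azurophil, granules, which carry myeloperoxidase and a set of serine proteases and are filled before the secondary granules appear. In blood cell development the genes of these granule proteins come on as progenitors commit to the granulocyte and monocyte lineages. They are switched off as the cells mature or take another path. The 10 genes described here were Mpo, Elane, Prtn3, Ctsg, Ms4a3, Hp, Igsf6, Serpinb1a, Cst7 and Plac8, taken by symbol from the authors' normalized count table, which holds 27526 genes. All 10 were found there, and all 10 passed the filter on low counts, among 16120 genes tested.

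The RNA came from mouse cells labelled Kit+ leukemia stem cells with AML1-ETO9a. This oncoprotein is a truncated splice form of the RUNX1-RUNX1T1 (AML1-ETO) fusion of human acute myeloid leukaemia, and the labels give it to both groups. Deleted 2, 4 and 6 were labelled Plcg1 -/- through conditional deletion, and wild-type 1 and 3 were labelled as having wild-type Plcg1. Plcg1 encodes phospholipase C-gamma1, which makes the second messengers diacylglycerol and inositol trisphosphate. The series title poses the question whether self-renewal in this leukaemia needs Plcg1. The labels name no Cre driver, no age of the mice and no time after deletion. They also tie no library to its own mouse, so p-values here measure only the spread between these 5 libraries, which may be technical.

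Gene counts per library ran from 52560713 to 57133771 under the deleted label and from 37306507 to 51682298 under the wild-type label. Levels are given as CPM, gene counts relative to the TMM-scaled size of each library. Plcg1 was at 52.998, 26.9 and 37.1 CPM in deleted 2, 4 and 6, against 22.1 and 33.99 CPM in wild-type 1 and 3. The gene total includes exons outside any deleted segment and so does not check the deletion. Kit, the receptor of the labelled selection, was at 672, 304 and 3.08 CPM in deleted 2, 4 and 6, against 26.8 and 32.1 CPM in wild-type 1 and 3. Relative to the wild-type mean, Kit stood at 22.9, 10.3 and 0.105 in deleted 2, 4 and 6. The low Kit of deleted 6 goes against its Kit+ label if transcript and surface protein go together. Whether its cells were Kit+ was not tested. Runx1t1, the ETO gene, was at 106, 74.0 and 13.5 CPM in deleted 2, 4 and 6, against 0.121 and 0.234 CPM in wild-type 1 and 3. The wild-type libraries held 5 and 13 Runx1t1 counts, which goes against their label if the fusion transcript is counted there, and whether they carried the same construct was not tested. Each difference below is thus one between libraries labelled deleted and libraries labelled wild-type. Deleted 6 also differed in sex-linked transcripts, with 5375 Xist counts, where each other library had at most 3. It was the library of lane 5, wild-type 1 was that of lane 3, and the other libraries were all of lane 4, per the file names. Counts of calls are therefore given with and without deleted 6 and within lane 4.

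Deleted 6 and the pair of deleted 2 and 4 differed in how these genes stood. In deleted 6, 9 of the 10 genes lay at least 10 times below every other library. In deleted 2 and 4 all 10 genes were abundant, but Elane and Hp stood at 0.168 to 0.207 of their wild-type means, while Mpo, Serpinb1a and Igsf6 overlapped with wild-type. Summed over the 10 genes, the level was 11626 CPM, 9313 CPM and 228 CPM in deleted 2, 4 and 6, against 16197 CPM and 16984 CPM in wild-type 1 and 3. Their share of all gene counts was 1.24%, 0.939% and 0.0176% in deleted 2, 4 and 6, against 1.801% and 1.82% in wild-type 1 and 3. The exact 95% binomial interval of the share in deleted 6 was 0.0173% to 0.0180%, which covers counting error only. In bulk RNA, fewer cells that express these genes and less of their RNA per cell cannot be told apart.

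**Figure D1:**
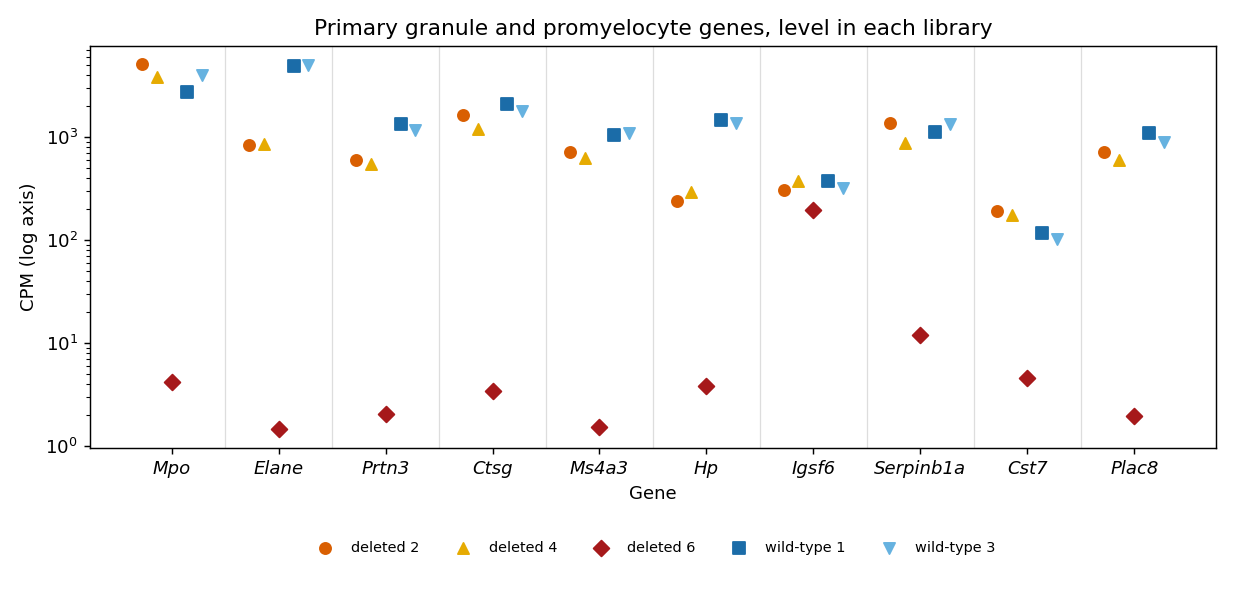
Level of each of the 10 genes in CPM on a log axis, 1 point per library, with the 3 deleted libraries left of the 2 wild-type libraries. The points of deleted 6 lie between 1.45 and 12.0 CPM for every gene except Igsf6, which had 193 CPM there.

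Among the granule enzymes, Elane, which encodes neutrophil elastase, had the most negative fold change of the 10 genes. It had 831, 848 and 1.45 CPM in deleted 2, 4 and 6, against 4869 and 4977 CPM in wild-type 1 and 3. Each deleted library was below both wild-type libraries, which were close to each other. Elane averaged 560.1 ± 484 CPM in deleted libraries (SD, n = 3) and 4923 ± 76.5 CPM in wild-type libraries (SD, n = 2). Over all 5 libraries the fitted log2 fold change (deleted over wild-type, ± SE) came to -3.14 ± 1.90, and edgeR's quasi-likelihood test gave an adjusted p of 0.466. Leaving out deleted 6 gave -2.54 ± 0.17 (edgeR, adjusted p = 0.000967), and lane 4 alone gave -2.56 ± 0.22 (edgeR, adjusted p = 0.0359). In lane 4 the spread comes from the 2 deleted libraries and is assumed to hold for wild-type 3.

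Prtn3 encodes proteinase 3, a close relative of elastase, and lies 3.07 kb from Elane on chromosome 10. It had 593, 542 and 2.04 CPM in deleted 2, 4 and 6, against 1336 and 1169.6 CPM in wild-type 1 and 3. The groups did not overlap, and deleted 2 and 4 stood at 0.473 and 0.433 of the wild-type mean, where Elane stood at 0.169 and 0.172. For Prtn3 the fit of all 5 libraries gave -1.72 ± 1.71 (edgeR, adjusted p = 0.620) and the fit without deleted 6 gave -1.13 ± 0.16 (edgeR, adjusted p = 0.00717). Lane 4 alone gave -1.03 ± 0.19 (edgeR, adjusted p = 0.0833), which did not pass. In the annotation Prtn3 overlaps Lppr3 on the opposite strand, so their counts are uncertain where they share positions.

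Ctsg encodes cathepsin G, the chymotrypsin-like protease of the same granules. It had 1621, 1198 and 3.44 CPM in deleted 2, 4 and 6, against 2089 and 1775 CPM in wild-type 1 and 3. Every deleted library was below both wild-type libraries, but deleted 2 by a small margin. None of the fits passed for Ctsg, with -1.04 ± 1.78 (edgeR, adjusted p = 0.771) over all 5 libraries, -0.44 ± 0.21 (edgeR, adjusted p = 0.219) without deleted 6 and -0.32 ± 0.27 (edgeR, adjusted p = 0.573) in lane 4.

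Mpo encodes myeloperoxidase, the heme enzyme that makes hypochlorous acid and a usual marker of primary granules. It had 5068, 3798 and 4.21 CPM in deleted 2, 4 and 6, against 2706 and 3972 CPM in wild-type 1 and 3. Deleted 2 was the highest of the 5 libraries, deleted 4 lay between the wild-type libraries, and deleted 6 stood 794 times below the wild-type mean. Mpo averaged 2957 ± 2635 CPM in deleted libraries (SD, n = 3) and 3339 ± 895 CPM in wild-type libraries (SD, n = 2), and the fit, which compares such means, gave -0.18 ± 1.98 (edgeR, adjusted p = 0.967). On the log2 CPM scale the group means differed by -2.92. Without deleted 6 the sign turned, at 0.42 ± 0.26 (edgeR, adjusted p = 0.344), and lane 4 gave 0.17 ± 0.30 (edgeR, adjusted p = 0.804).

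Stretches before the start site are shown for the 3 serine protease genes and for Cst7. Elane and Prtn3 are neighbours that were both called lower without deleted 6, Ctsg was not called and lies beside mast cell protease genes, and Cst7 was the member called higher in that fit. They are RefSeq's, on GRCm38.p6 (the mm10 build), from up to 250 bases before the start to the start site. A stretch ends sooner where an annotated exon of GENCODE M21 comes before that site. That of Prtn3 lies inside its GENCODE gene, annotated at chr10:79874476-79883174. All read 5′ to 3′ on the gene's own strand, and capitals mark matches of 4 short motifs on either strand. The stretches are Elane at chr10:79886062-79886246 (plus), Prtn3 at chr10:79879417-79879613 (plus), Ctsg at chr14:56102575-56102824 (minus) and Cst7 at chr2:150570165-150570414 (plus).
Elane: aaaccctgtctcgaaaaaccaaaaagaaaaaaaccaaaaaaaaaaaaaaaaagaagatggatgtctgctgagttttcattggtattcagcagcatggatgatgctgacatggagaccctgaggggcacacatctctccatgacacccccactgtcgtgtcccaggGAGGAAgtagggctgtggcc
Prtn3: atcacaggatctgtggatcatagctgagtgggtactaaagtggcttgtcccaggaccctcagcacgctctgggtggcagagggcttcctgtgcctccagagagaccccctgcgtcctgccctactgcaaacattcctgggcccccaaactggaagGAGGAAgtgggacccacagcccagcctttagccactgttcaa
Ctsg: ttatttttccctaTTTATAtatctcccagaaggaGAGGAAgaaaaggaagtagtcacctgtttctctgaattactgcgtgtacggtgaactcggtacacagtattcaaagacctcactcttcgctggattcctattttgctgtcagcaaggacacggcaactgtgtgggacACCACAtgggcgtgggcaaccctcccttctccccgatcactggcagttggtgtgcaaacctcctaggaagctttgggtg
Cst7: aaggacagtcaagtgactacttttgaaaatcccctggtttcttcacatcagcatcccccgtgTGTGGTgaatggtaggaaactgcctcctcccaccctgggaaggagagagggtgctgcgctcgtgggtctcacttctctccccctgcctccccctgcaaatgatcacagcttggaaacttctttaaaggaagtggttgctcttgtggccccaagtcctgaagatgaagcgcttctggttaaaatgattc

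The motifs were GAGGAA, a purine-rich core of ETS factors such as PU.1, TGTGGT, the core of RUNX sites, TTGCNNAA, a C/EBP core, and TATAAA, the TATA box. They were searched on both strands in the 250 bases before the start, and the matches in the 4 stretches do not overlap. RefSeq's table held 9 such windows for 8 of the 10 genes, all but Hp and Serpinb1a. GAGGAA occurred in 6 of the 9 windows, and in 23.3% of 32851 windows of all genes. In Elane and Prtn3 it began 85 and 95 bases before the start. TGTGGT occurred in 3 of the 9 windows, those of Ctsg and Cst7 and 1 of Plac8, and in 14.05% of all windows. TTGCNNAA and TATAAA each occurred in 1 of the 9 windows, and in 9.56% and 12.4% of all windows. These are matches of letters and say nothing of binding in these cells.

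Hp encodes haptoglobin, which binds free haemoglobin and is made in granulocyte precursors as well as in liver. It had 237, 292 and 3.82 CPM in deleted 2, 4 and 6, against 1467 and 1358 CPM in wild-type 1 and 3. The groups were far apart, and deleted 2 and 4 stood at 0.168 and 0.207 of the wild-type mean. For Hp the fit of all 5 libraries gave -2.99 ± 1.46 (edgeR, adjusted p = 0.393). It passed without deleted 6, at -2.40 ± 0.18 (edgeR, adjusted p = 0.00112), and in lane 4, at -2.35 ± 0.21 (edgeR, adjusted p = 0.0372).

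Ms4a3, a membrane protein of granulocyte and monocyte progenitors, had 706, 621 and 1.52 CPM in deleted 2, 4 and 6, against 1039 and 1082 CPM in wild-type 1 and 3. Its groups did not overlap. All 5 libraries gave -1.26 ± 1.78 (edgeR, adjusted p = 0.721) for Ms4a3, the fit without deleted 6 gave -0.66 ± 0.15 (edgeR, adjusted p = 0.0365), and lane 4 gave -0.70 ± 0.20 (edgeR, adjusted p = 0.168), so the call rests on the fit without deleted 6. Plac8, a small cysteine-rich protein of myeloid cells, had 705, 592 and 1.97 CPM in deleted 2, 4 and 6, against 1079 and 884 CPM in wild-type 1 and 3. Its groups did not overlap either, but no fit passed, with -1.18 ± 1.73 (edgeR, adjusted p = 0.732) over all 5 libraries and -0.58 ± 0.18 (edgeR, adjusted p = 0.0813) without deleted 6.

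Igsf6, an immunoglobulin-like membrane protein of myeloid cells, was the member with the smallest gap between deleted 6 and the rest. It had 307, 370.4 and 193 CPM in deleted 2, 4 and 6, against 371 and 320.3 CPM in wild-type 1 and 3. Deleted 6 was lowest, 1.79 times below the wild-type mean, and deleted 2 and 4 overlapped with the wild-type libraries. For Igsf6 the fits gave -0.25 ± 0.32 (edgeR, adjusted p = 0.693) over all 5 libraries and -0.017 ± 0.16 (edgeR, adjusted p = 0.962) without deleted 6. In the annotation Igsf6 overlaps Mettl9. The kits used do not mark strand, so reads of overlapping genes cannot be assigned by strand. Mettl9 had 66.3, 75.2 and 40.9 CPM in deleted 2, 4 and 6, against 82.2 and 94.1 CPM in wild-type 1 and 3.

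Serpinb1a and Cst7 encode inhibitors of granule proteases or of their activator. Serpinb1a, a cytosolic serpin that blocks elastase, proteinase 3 and cathepsin G, had 1365, 878 and 12.0 CPM in deleted 2, 4 and 6, against 1124 and 1344 CPM in wild-type 1 and 3. Deleted 2 was the highest library and deleted 4 lay below both wild-type libraries. For Serpinb1a the fits gave -0.72 ± 1.501 (edgeR, adjusted p = 0.811) over all 5 libraries and -0.13 ± 0.24 (edgeR, adjusted p = 0.792) without deleted 6. Its close copies Serpinb1b and Serpinb1c had at most 3.41 CPM in any library, and reads that align to several places are not in the counts. Serpinb1a over Elane counts stood at 1.64, 1.04 and 8.30 in deleted 2, 4 and 6, against 0.231 and 0.270 in wild-type 1 and 3.

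Cst7 encodes cystatin F, an inhibitor of cysteine proteases that acts on cathepsin C, the activator of the granule serine proteases. It had 192, 173 and 4.57 CPM in deleted 2, 4 and 6, against 117 and 102 CPM in wild-type 1 and 3. Deleted 2 and 4 lay above both wild-type libraries and deleted 6 below them. For Cst7 the fit of all 5 libraries gave 0.17 ± 1.31 (edgeR, adjusted p = 0.9505). Without deleted 6 it passed, at 0.75 ± 0.14 (edgeR, adjusted p = 0.0195), and in lane 4 it did not, at 0.85 ± 0.17 (edgeR, adjusted p = 0.0971).

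Counted together, edgeR called 0 of the 10 genes over all 5 libraries, where it called 0% of all genes. None of the 10 had an unadjusted p under 0.05, where 5.42% of all genes did so lower and 9.44% higher. DESeq2 called 0 of the 10, beside 6.77% of all genes (2.17% lower and 4.59% higher). Limma-voom with sample weights called 0 of the 10, beside 13.5% of all genes (5.87% lower and 7.63% higher). In 6 of the 10 genes (Elane, Prtn3, Ctsg, Ms4a3, Hp and Plac8) the deleted libraries all lay below wild-type, as in 23.7% of all tested genes. In 0 of the 10 they all lay above, as in 22.4% of all tested genes.

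Without deleted 6, edgeR called 4 of the 10 lower (Elane, Hp, Prtn3 and Ms4a3), beside 5.07% of 15787 genes, and 1 higher (Cst7), beside 7.89%. In either direction it called 13% of all genes there. In that set 6 of the 10 had deleted 2 and 4 below wild-type, beside 29.8% of all genes, and 1 above, beside 28.7%. In lane 4 it called 2 lower (Elane and Hp), beside 0.779% of all genes, and 0 higher, beside 1.26%, or 2.03% in either direction. The median log2 fold change of the 10 genes was -1.11 over all 5 libraries and -0.51 without deleted 6, beside 0.010 and -0.005 over all tested genes. Deleted 6 was the lowest library for all 10 genes and for 37.9% of all tested genes. It lay at least 10 times below every other library for 9 of the 10 and for 5.26% of all tested genes, a limit set after the values were seen.

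**Figure D2:**
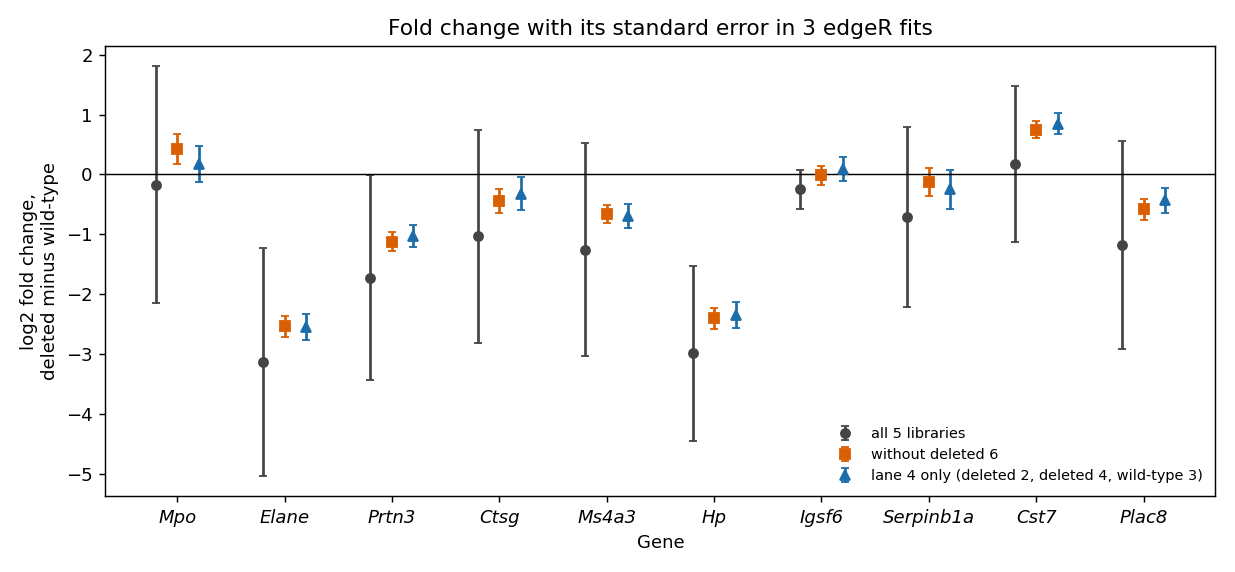
Log2 fold change, deleted over wild-type, with its standard error, for each gene in edgeR fits of all 5 libraries, without deleted 6 and within lane 4. Elane and Hp lie below -2 in each fit, and the standard errors over all 5 libraries, from 0.32 for Igsf6 to 1.98 for Mpo, are the widest of the 3 fits for every gene.

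Levels between genes were compared per kilobase of annotated exons. Elane led in both wild-type libraries at 4948 and 5058 CPM per kb, followed by Ctsg at 2022 and 1718 CPM per kb. Mpo, at 790.3 and 1160.1 CPM per kb, and Hp, at 913 and 845, overlapped behind them. In deleted 2 and 4 Ctsg led at 1569 and 1159 CPM per kb with Mpo at 1480.3 and 1109, a pair whose ranges overlapped, and Elane came next at 844 and 862. Hp, at 148 and 182 CPM per kb in deleted 2 and 4, stood there among the 3 lowest with Igsf6 and Cst7.

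As a share of the counts of the 10 genes, Elane took 7.15%, 9.10% and 0.635% in deleted 2, 4 and 6, against 30.1% and 29.3% in wild-type 1 and 3. Mpo took 43.6%, 40.8% and 1.85% in deleted 2, 4 and 6, against 16.7% and 23.4% in wild-type 1 and 3. Elane thus held a larger share than Mpo in both wild-type libraries and a smaller one in all 3 deleted libraries. In deleted 6, with 10076 counts for the 10 genes, the exact 95% binomial interval was 0.489% to 0.810% for Elane and 1.59% to 2.13% for Mpo. Igsf6 alone held 84.6% (83.9% to 85.3%) there. Elane had 64 counts in deleted 6, Ms4a3 67, Plac8 87 and Prtn3 90, above the 3 counts that a count of 0 allows. Elane over Mpo counts stood at 0.164, 0.223 and 0.344 in deleted 2, 4 and 6, against 1.799 and 1.25 in wild-type 1 and 3. Hp over Mpo counts stood at 0.0468, 0.0769 and 0.909 in deleted 2, 4 and 6, against 0.542 and 0.342 in wild-type 1 and 3. Deleted 6 lay above both wild-type libraries in the ratio of Hp to Mpo and below them in that of Elane to Mpo.

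**Figure D3:**
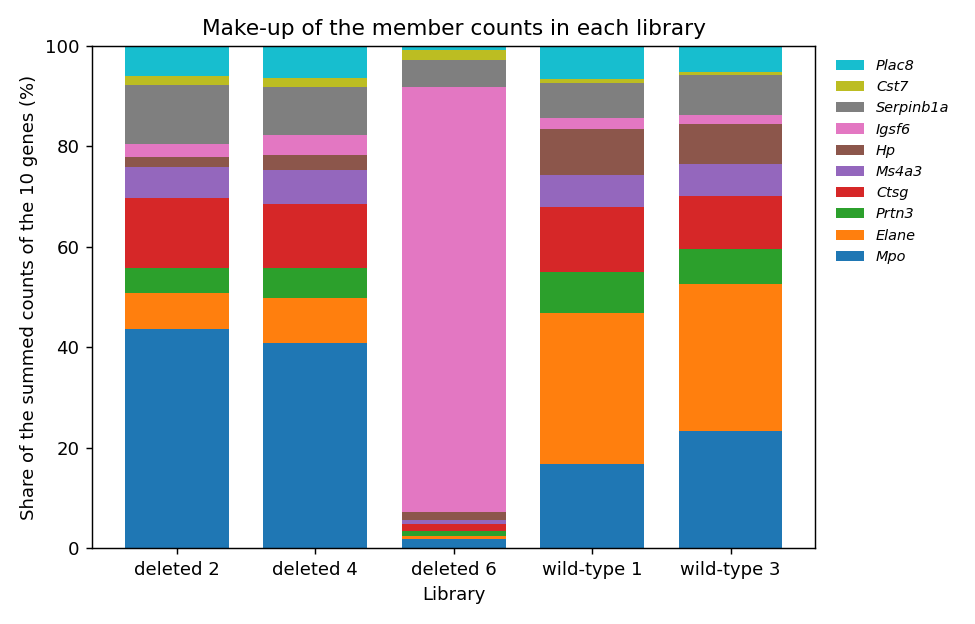
Share of each gene in the summed counts of the 10 genes, in percent, 1 bar per library. Elane is at 29.3% or more in the wild-type libraries and at 9.10% or less in the deleted ones, and Igsf6 fills 84.6% of the bar of deleted 6.

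Likeness between genes was measured as the Euclidean distance between log2 CPM profiles over the 5 libraries, each centred on its own mean. It was 0.29 between Ctsg and Plac8 and 0.39 between Ctsg and Ms4a3, the closest pairs among the 10. It was 2.12 between the neighbours Elane and Prtn3, and 3.77 to 8.95 between Igsf6 and the other members. For every member but Igsf6, deleted 6 differed from the wild-type mean by -11.7 (Elane) to -4.57 (Cst7) log2 units. The size of the gap in this library therefore weighs heavily in these distances. Outside the set, genes nearest to the mean profile of the 10 included Ubash3a, Rasgrp2, Ska1 and Myb, at 0.18 to 0.37, where the median over genes was 6.78. Nearest to Elane were F13a1, Lbp and Fcnb (1.78 to 2.16), and nearest to Plac8 were Prss57, BC035044 and Padi4 (0.50 to 0.66). Nearest to Mpo were the Y-linked genes Kdm5d, Eif2s3y and Uty (0.71 to 0.93). Kdm5d had 25.7, 22.6 and 0 CPM in deleted 2, 4 and 6, against 21.8 and 24.7 CPM in wild-type 1 and 3. The sex-linked difference and the low Mpo fall on the same library and cannot be told apart.

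Genes beside the members on the chromosome were followed too. Without deleted 6, edgeR called 2 of 6 tested genes within 100 kb of Mpo lower and 2 of 5 near Hp, with 0 higher. For Ms4a3 it called 1 of 5 lower and 1 higher, and it called 0 for Igsf6, Serpinb1a, Cst7 and Plac8. The shares of all genes in that fit were 5.07% lower and 7.89% higher. Of 13 tested genes within 100 kb of Elane, edgeR called 3 lower and 0 higher without deleted 6, namely Prtn3, Lppr3 and Cfd, which encodes complement factor D, beside 5.07% and 7.89% of all genes. It called 0 of the 13 over all 5 libraries and 0 in lane 4. Cfd was low, at 0.105, 0.0566 and 0 CPM in deleted 2, 4 and 6, against 0.771 and 0.721 CPM in wild-type 1 and 3. Prss57, a further serine protease of primary granules in that window, had 79.8, 69.6 and 0.204 CPM in deleted 2, 4 and 6, against 85.9 and 86.3 CPM in wild-type 1 and 3. It did not pass without deleted 6, at -0.19 ± 0.13 (edgeR, adjusted p = 0.413). Ctsg lies on chromosome 14 beside the mast cell proteases Mcpt8, Mcpt4, Mcpt2 and Mcpt1. All 4 were called higher without deleted 6, with edgeR log2 fold changes of 2.52, 8.61, 7.87 and 7.82, where Ctsg had -0.44. None of them passed over all 5 libraries, with edgeR adjusted p-values of 0.287 to 0.586, and in lane 4 all but Mcpt8 passed. Mcpt8 had 254, 135 and 1.45 CPM in deleted 2, 4 and 6, against 29.8 and 38.5 CPM in wild-type 1 and 3, so deleted 6 was far below wild-type. Mcpt4 had 52.4, 52.8 and 0.136 CPM in deleted 2, 4 and 6, against 0.121 and 0.144 CPM in wild-type 1 and 3. Ms4a3 neighbours Ms4a2, the beta chain of the IgE receptor, which had 166, 73.5 and 0.452 CPM in deleted 2, 4 and 6, against 5.45 and 7.91 CPM in wild-type 1 and 3. Differences between neighbouring genes were not tested.

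Of 12 regulators of granulocyte differentiation, 5 were called without deleted 6 and 0 in lane 4. Without deleted 6, edgeR called 4 of 12 tested genes lower and 1 higher, beside 5.07% and 7.89% of all genes, with a median log2 fold change of -0.42. In lane 4 it called 0 of 12 lower and 0 higher, beside 0.779% and 1.26% of all genes. Over all 5 libraries it called 0 of 12, with 1 lower and 1 higher at unadjusted p-values under 0.05 and a median of -0.39. There DESeq2 called 0 lower and 1 higher among 12 genes, beside 2.17% and 4.59% of all genes. Limma-voom called 1 lower and 1 higher among 12, beside 5.87% and 7.63%. Gfi1, a repressor needed for neutrophil development, had 106, 75.5 and 0.430 CPM in deleted 2, 4 and 6, against 144 and 183 CPM in wild-type 1 and 3. Its fold change without deleted 6 was -0.84 ± 0.21 (edgeR, adjusted p = 0.0458). Myb, a factor of blood progenitors, had 188, 132 and 1.02 CPM in deleted 2, 4 and 6, against 301 and 295 CPM in wild-type 1 and 3, and -0.88 ± 0.19 (edgeR, adjusted p = 0.0297) in the same fit. Irf8, which favours monocytes over granulocytes, had 35.5, 69.9 and 114 CPM in deleted 2, 4 and 6, against 209 and 256 CPM in wild-type 1 and 3, and -2.13 ± 0.32 (edgeR, adjusted p = 0.00871) without deleted 6. These 3 and Cebpd, at -0.69 ± 0.14 (edgeR, adjusted p = 0.0260), were the regulators called lower there, and their adjusted p-values in lane 4 were 0.0821 to 0.172 (edgeR).

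Runx1 was the regulator called higher without deleted 6, at 1.32 ± 0.17 (edgeR, adjusted p = 0.00541), but not in lane 4, at 1.27 ± 0.24 (edgeR, adjusted p = 0.0890). Gene counts do not separate its own transcript from one of the fusion. Cebpe, a factor of terminal granulocyte differentiation, had 19.0, 25.2 and 1.63 CPM in deleted 2, 4 and 6, against 39.8 and 34.05 CPM in wild-type 1 and 3, and did not pass without deleted 6, at -0.73 ± 0.20 (edgeR, adjusted p = 0.0582). Spi1, which encodes PU.1, had 279, 319 and 339 CPM in deleted 2, 4 and 6, against 361 and 339 CPM in wild-type 1 and 3. Cebpa, a factor of early granulocyte commitment, had 26.1, 22.5 and 64.0 CPM in deleted 2, 4 and 6, against 32.4 and 32.8 CPM in wild-type 1 and 3. Deleted 6 was thus the highest library for Cebpa, while it was the lowest for all 10 members.

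**Figure D4:**
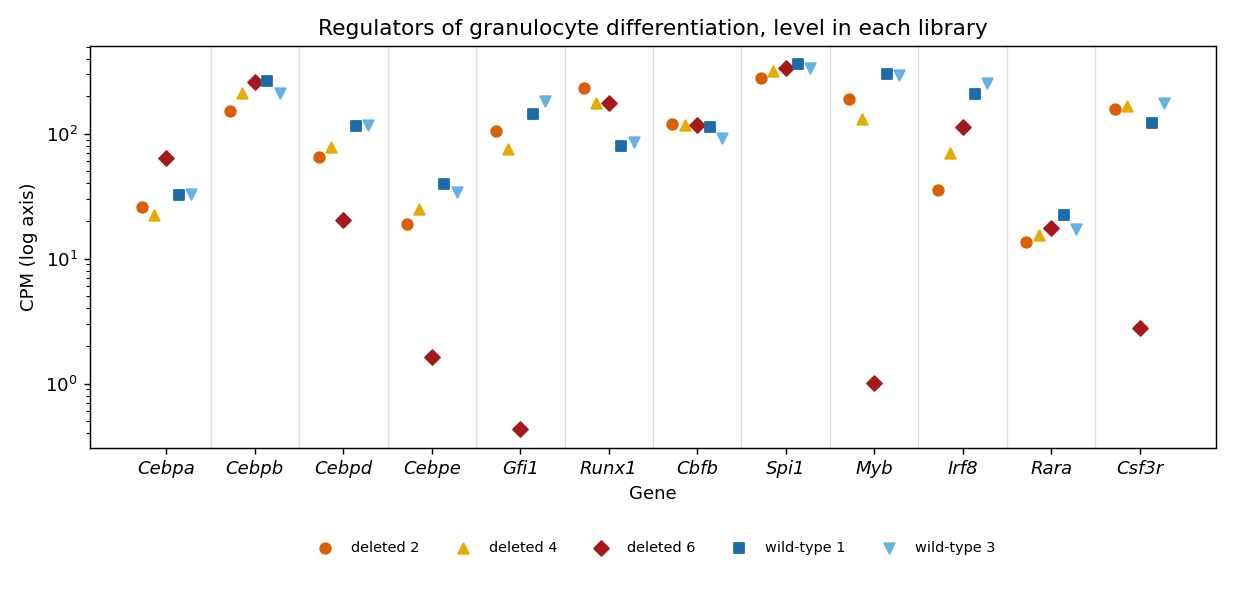
Level of 12 regulators of granulocyte differentiation in CPM on a log axis, 1 point per library, deleted libraries on the left of each column. In deleted 6 Gfi1, Myb, Cebpe and Csf3r lie between 0.430 and 2.78 CPM, while Spi1 lies between 279 and 361 CPM over all 5 libraries.

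A list of other genes of the promyelocyte stage was read in the same way. Without deleted 6, edgeR called 7 of 14 tested genes lower and 0 higher, beside 5.07% and 7.89% of all genes, with a median log2 fold change of -0.92. In lane 4 it called 3 of 14 lower and 0 higher, beside 0.779% and 1.26% of all genes. Over all 5 libraries it called 0 of 14, with 1 lower and 0 higher at unadjusted p-values under 0.05 and a median of -0.93. There DESeq2 called 1 lower and 0 higher among 13 genes, beside 2.17% and 4.59% of all genes. Limma-voom called 2 lower and 0 higher among 14, beside 5.87% and 7.63%. Clec12a, an inhibitory lectin receptor, had 80.2, 106 and 45.3 CPM in deleted 2, 4 and 6, against 440.5 and 511 CPM in wild-type 1 and 3. Ly6c2, a surface marker of monocytes and their precursors, had 131, 247 and 5.45 CPM in deleted 2, 4 and 6, against 781 and 832 CPM in wild-type 1 and 3. Clec12a and Ly6c2 were among 8 of 14 tested genes of the list with every deleted library below wild-type, beside 23.7% of all tested genes. For 1 of the 14 every deleted library lay above, beside 22.4%. Lyz1, a lysozyme gene, had 9.25, 18.0 and 1574 CPM in deleted 2, 4 and 6, against 86.4 and 117 CPM in wild-type 1 and 3. Without deleted 6 it was called lower, at -2.89 ± 0.34 (edgeR, adjusted p = 0.00392). Its counts are uncertain because Lyz2 is a near copy, and Lyz2 had 7215, 15417 and 68117 CPM in deleted 2, 4 and 6, against 9657 and 8764 CPM in wild-type 1 and 3. Mgst1, a microsomal glutathione transferase, had 123, 170.0 and 281 CPM in deleted 2, 4 and 6, against 106 and 113 CPM in wild-type 1 and 3. Summed, the list was at 10225, 18696 and 72967 CPM in deleted 2, 4 and 6, against 14189.5 and 13982 CPM in wild-type 1 and 3. Of the sum in deleted 6, Lyz2 alone gave 68117 CPM. The mean log2 CPM of its tested genes went the other way, at 6.99, 7.29 and 4.92 in deleted 2, 4 and 6, against 8.13 and 8.27 in wild-type 1 and 3. Without deleted 6, Clec12a gave -2.34 ± 0.19 (edgeR, adjusted p = 0.00134), Ly6c2 -2.08 ± 0.30 (edgeR, adjusted p = 0.00777) and Dmkn -1.87 ± 0.21 (edgeR, adjusted p = 0.00337), and of these only Clec12a passed in lane 4, at -2.45 ± 0.22 (edgeR, adjusted p = 0.0372).

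Genes that activate, pack and sort granule proteins were read as a list too. Without deleted 6, edgeR called 1 of 12 tested genes lower and 1 higher, beside 5.07% and 7.89% of all genes, with a median log2 fold change of 0.062. In lane 4 it called 0 of 12 lower and 0 higher, beside 0.779% and 1.26% of all genes. Over all 5 libraries it called 0 of 12, with 0 lower and 2 higher at unadjusted p-values under 0.05 and a median of 0.037. There DESeq2 called 0 lower and 1 higher among 12 genes, beside 2.17% and 4.59% of all genes. Limma-voom called 0 lower and 1 higher among 12, beside 5.87% and 7.63%. The 2 genes called without deleted 6 were Rab27a and Cd63. Rab27a, a small GTPase of granule release, had -0.90 ± 0.12 (edgeR, adjusted p = 0.00665) without deleted 6. Cd63, a membrane protein of primary granules and lysosomes, had 1.014 ± 0.17 (edgeR, adjusted p = 0.0121) in that fit, and its levels were 612, 690.4 and 1176 CPM in deleted 2, 4 and 6, against 358 and 293 CPM in wild-type 1 and 3. Ctsc, the cathepsin C that activates elastase, proteinase 3 and cathepsin G, had 566, 970.4 and 882 CPM in deleted 2, 4 and 6, against 1527 and 1161 CPM in wild-type 1 and 3. Its groups did not overlap, but it did not pass without deleted 6, at -0.79 ± 0.28 (edgeR, adjusted p = 0.121).

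Secondary and tertiary granule genes and protease inhibitors were the remaining related lists. For the granule genes the counts were these. Without deleted 6, edgeR called 6 of 14 tested genes lower and 1 higher, beside 5.07% and 7.89% of all genes, with a median log2 fold change of -0.66. In lane 4 it called 3 of 14 lower and 1 higher, beside 0.779% and 1.26% of all genes. Over all 5 libraries it called 0 of 14, with 3 lower and 1 higher at unadjusted p-values under 0.05 and a median of -1.23. There DESeq2 called 3 lower and 0 higher among 14 genes, beside 2.17% and 4.59% of all genes. Limma-voom called 3 lower and 1 higher among 14, beside 5.87% and 7.63%. Slpi, a secreted inhibitor of elastase that is in both lists, had 268, 307 and 129.7 CPM in deleted 2, 4 and 6, against 1738 and 1829 CPM in wild-type 1 and 3. Without deleted 6, Slpi gave -2.62 ± 0.17 (edgeR, adjusted p = 0.000799), Camp -2.39 ± 0.33 (edgeR, adjusted p = 0.00656) and Olfm4 -4.75 ± 0.75 (edgeR, adjusted p = 0.0110), and of these only Slpi passed in lane 4, at -2.66 ± 0.20 (edgeR, adjusted p = 0.0326). Chil3, a chitinase-like protein, was called higher without deleted 6, at 2.13 ± 0.19 (edgeR, adjusted p = 0.00178), and had 669.5, 648 and 4.05 CPM in deleted 2, 4 and 6, against 128 and 176 CPM in wild-type 1 and 3. Mmp8, the neutrophil collagenase, had 853, 1204 and 1278 CPM in deleted 2, 4 and 6, against 715 and 517 CPM in wild-type 1 and 3. It was above wild-type in every deleted library, but did not pass in any of the edgeR fits given here. Limma-voom over all 5 libraries called it higher, at 0.89 ± 0.20 (limma-voom, adjusted p = 0.0401). Ltf, Lcn2, S100a8 and S100a9 overlapped between the groups, and without deleted 6 the list split into 7 genes with a negative and 7 with a positive fold change. For the inhibitors the number of genes called higher differed between the fits. Without deleted 6, edgeR called 1 of 12 tested genes lower and 4 higher, beside 5.07% and 7.89% of all genes, with a median log2 fold change of 1.17. In lane 4 it called 1 of 13 lower and 0 higher, beside 0.779% and 1.26% of all genes. Over all 5 libraries it called 0 of 13, with 1 lower and 6 higher at unadjusted p-values under 0.05 and a median of 1.52. There DESeq2 called 1 lower and 5 higher among 13 genes, beside 2.17% and 4.59% of all genes. Limma-voom called 1 lower and 6 higher among 13, beside 5.87% and 7.63%. Serpinb8 and Serpinb6a, cytosolic serpins, gave 1.82 ± 0.35 (edgeR, adjusted p = 0.0212) and 1.37 ± 0.23 (edgeR, adjusted p = 0.0126) without deleted 6, and neither passed in lane 4, at 1.58 ± 0.47 (edgeR, adjusted p = 0.179) and 1.11 ± 0.20 (edgeR, adjusted p = 0.0856).

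Markers of other cell types were measured beside these genes. The 12 mast cell and basophil markers summed to 10953, 5031 and 35.9 CPM in deleted 2, 4 and 6. In wild-type 1 and 3 their sums were 99.0 and 169 CPM. All 12 were higher in deleted 2 and 4 than in both wild-type libraries, beside 28.7% of all genes tested without deleted 6. The 12 macrophage markers summed to 22637, 41265 and 137846 CPM in deleted 2, 4 and 6, against 18336 and 18100.0 CPM in wild-type 1 and 3, of which Lyz2 alone gave 68117 CPM in deleted 6. Every deleted library was above wild-type for 4 of these 12 and below for 1, beside 22.4% and 23.7% of all tested genes. The mean log2 CPM of all 12 was 7.07, 8.60 and 8.15 in deleted 2, 4 and 6, against 7.27 and 7.74 in wild-type 1 and 3. The 10 proliferation genes summed to 1613, 1509 and 101 CPM in deleted 2, 4 and 6, against 2193 and 2412 CPM in wild-type 1 and 3. Every deleted library was below wild-type for all 10 proliferation genes, beside 23.7% of all tested genes. No marker of these 3 lists was at 0 counts in deleted 6. The part of mast cells, macrophages and cell division in the levels of the members was not tested.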

How the data were processed

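RNA of Kit+ AML1-ETO9a cells was extracted with Trizol and amplified with SMART-Seq v4, with Nextera XT used to make the libraries, per the labels' protocols. The submitters' processing notes name bcl2fastq 1.8.4, STAR, DESeq2 1.12.4 and mm10, and the sources used here do not give the counter's settings or annotation. The authors deposited whole-number read counts for 46603 genes in each of 5 libraries, and a table of normalized signal in which each library's counts are divided by its own size factor. Reads not assigned to a gene were left out: 5.89% to 8.09% without a feature, 2.36% to 2.78% ambiguous, 2.48% to 4.13% unaligned and 13.0% to 15.1% aligned to several places.

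Counts were filtered with filterByExpr, scaled with TMM and tested with edgeR 4.0.16 (R 4.3.3), by a quasi-likelihood F test (residual degrees of freedom: 3). Adjustment was by Benjamini-Hochberg over all tested genes, and a call is an adjusted p under 0.05. The SE is the size of the log2 fold change over the square root of F. Alternatives were DESeq2 1.42.0, limma 3.58.1 voom with sample weights, other scaling and filters, single libraries left out, and lane 4 alone. Fits with 1 wild-type library assume that it varies like the deleted libraries. With 3 libraries against 2, exact permutation reaches no two-sided p below 0.1 and was not used. The fit was tested on simulated data. No pair of libraries was a copy: the chi-square per gene was 44.7 in the closest pair. Profiles used log2 CPM with a prior count of 2. The limit of 3 counts is 0.0526 to 0.0723 CPM. Exon lengths and positions are from GENCODE M21 on GRCm38, and the authors' annotation may differ.

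The members, lists and tests were chosen with earlier results of these data known. All 10 members are named, with the 3 genes of largest fold change per related list at a mean log2 CPM of at least 3, any regulator, the nearest profiles, and Plcg1, Kit and Runx1t1. Other genes named were chosen after their values were seen. A gene among the nearest profiles is not reported here.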

Additional observations from a re-analysis of the deposited data

How the results depend on the processing

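All 11 alternatives kept the direction of Elane (log2 fold change -3.55 to -2.54), Hp (-3.54 to -2.35), Prtn3 (-2.20 to -1.03), Ctsg (-1.68 to -0.32), Ms4a3 (-1.76 to -0.66), Plac8 (-1.72 to -0.43) and Serpinb1a (-1.47 to -0.13). Over them the edgeR, DESeq2 or limma adjusted p ran from 0.000967 to 0.841 for Elane and from 0.00112 to 0.840 for Hp. The sign of Mpo turned with limma-voom (0.040), without deleted 6 (0.42), without wild-type 3 (0.13) and within lane 4 (0.17), and single libraries left out gave -0.81 to 0.42. That of Igsf6 turned with limma-voom (0.025) and within lane 4 (0.091). That of Cst7 turned without deleted 2 (-0.30) or deleted 4 (-0.14), and single libraries left out gave -0.30 to 0.75. None of these turned values passed the threshold, and the cause was not tested. With single libraries left out, edgeR called 0 to 4 of the 10 genes lower and 0 to 1 higher, and 0 to 800 of all genes lower and 0 to 1245 higher; only the fit without deleted 6 made any call. The deleted libraries then lay below wild-type for 6 to 7 of the 10 genes and above for 0 to 1. Of all genes, 4333 to 5510 lay below and 3963 to 5157 above. Without deleted 6 those shares were 29.8% below and 28.7% above. The median of the 10 was -1.70 to -0.51. In lane 4, where 16806 genes were tested, deleted 2 and 4 both lay below wild-type 3 for 6 of the 10 genes. Within lane 4, 2 of the 10 genes were called lower and 1 lay above wild-type. Of all genes there, 131 were called lower and 211 higher, and 6724 lay below and 6651 above the only wild-type library. DESeq2 called 397 genes lower and 840 higher, limma-voom 947 and 1230, and edgeR with no filter on low counts 115 and 163. No paired analysis was possible because the groups share no replicate number.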
